A study of Mus musculus with 16 samples.

Results

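The 8 interferon regulatory factor genes Irf1, Irf2, Irf3, Irf4, Irf5, Irf7, Irf8 and Irf9 were examined for binding of Bcl11a and Spi1 in mouse MPP3 cells, out of 21887 protein-coding genes of the annotation. Every deposited peak at these genes was taken, within 10 kb of the gene body, or 70 kb for Irf8, whose known enhancers lie far from the gene. Peaks of all 16 lists that shared at least 1 bp were merged into 31 regions, of which 26 had a peak in at least 2 libraries. Genome-wide, 21649 merged regions met the same minimum.

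MPP3 is a myeloid-leaning class of multipotent progenitor, here sorted from bone marrow. CUT&Tag directs a transposase to an antibody-bound factor and so tags the DNA beside it. Bcl11a, a zinc finger repressor, was profiled in WT-iMOS mice with 3 T2 and 3 T1 libraries. Spi1, the ETS factor PU.1, was profiled in KO-iMOS mice with 2 T2 and 2 T1 libraries and in WT-iMOS mice with 3 T2 and 3 T1 libraries. All titles also carry 3m. The labels explain none of iMOS, T1, T2, 3m or the deleted gene, and do not say whether replicates were separate animals or pools, so p-values measure only the spread between these libraries. The stated purpose was to learn how Bcl11a works in MPP3, yet Bcl11a was not profiled in the KO-iMOS samples analysed here. The peaks in the KO-iMOS T2 lists are named with the prefix PKO and those in the KO-iMOS T1 lists with PWT, which no label explains.

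The lists held 4740 ± 1725 peaks for Bcl11a in WT-iMOS (mean ± SD, n = 6), 13637 ± 5724 for Spi1 in KO-iMOS (n = 4) and 8159 ± 2763 for Spi1 in WT-iMOS (n = 6). Read depth behind the lists is unknown. In such bulk libraries a missing peak can mean weaker binding, fewer cells with the factor bound, or less depth, and these cannot be told apart. Of 7 marker genes of multipotent and myeloid progenitors, 4 had a Bcl11a peak, 6 a KO-iMOS Spi1 peak and 6 a WT-iMOS Spi1 peak in at least 2 libraries. Of 4 erythroid marker genes, 2 did for Bcl11a, 3 for Spi1 in KO-iMOS and 2 for Spi1 in WT-iMOS, and of 3 megakaryocyte markers 2 did in each of these groups. Of 4 B cell markers, 0 did for Bcl11a, 1 for Spi1 in KO-iMOS and 2 for Spi1 in WT-iMOS. None of 3 T cell and none of 4 non-haematopoietic marker genes did in any of these groups. Over all genes and 10 kb flanks the shares were 25.3% for Bcl11a, 49.8% for KO-iMOS Spi1 and 33.5% for WT-iMOS Spi1. With 3 to 7 genes per list these counts are a description only, and a peak is no measure of expression.

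Interferon regulatory factors share a helix-turn-helix DNA-binding domain that recognises repeats of GAAA. Irf3 and Irf7 are activated below nucleic acid sensors and switch on type I interferon genes, Irf9 joins Stat2 in the complex formed after interferon binds its receptor, and Irf1 and Irf2 act at overlapping sites as activator and antagonist. Irf4 and Irf8 bind DNA weakly alone and are recruited beside PU.1 at composite ETS-IRF elements, and Irf8 directs progenitors to monocytes and dendritic cells at the expense of neutrophils.

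Promoter sequences of the 4 members with a start-site peak in at least 3 libraries are shown, because GGAAGT, the core typical of PU.1 sites, marks some of them and not others. The sequences are from RefSeq on GRCm38.p6, plus strand, 5′ to 3′, and all 4 genes lie on the plus strand. For Irf1, Irf2 and Irf4 the 250 bases before the start site are given. For Irf3 only 30 bases around the match are given, since the start of the neighbouring gene Bcl2l12 lies within the window. Capitals mark GGAAGT on either strand (ACTTCC when read on the minus strand) and, at Irf2, the IRF-type match that adjoins it.
Irf1 chr11:53769764-53770013: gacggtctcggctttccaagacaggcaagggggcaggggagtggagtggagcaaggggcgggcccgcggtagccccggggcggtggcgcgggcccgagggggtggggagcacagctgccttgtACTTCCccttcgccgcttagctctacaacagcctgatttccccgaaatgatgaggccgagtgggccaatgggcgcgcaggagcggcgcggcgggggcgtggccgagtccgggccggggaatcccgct
Irf2 chr8:46739495-46739744: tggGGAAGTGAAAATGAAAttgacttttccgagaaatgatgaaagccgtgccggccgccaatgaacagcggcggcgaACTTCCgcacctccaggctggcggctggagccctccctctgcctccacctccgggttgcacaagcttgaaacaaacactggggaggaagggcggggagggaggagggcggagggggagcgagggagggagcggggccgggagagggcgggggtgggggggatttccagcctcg
Irf3 chr7:44997521-44997550: aacttttacttcGGAAGTtcaactttccca
Irf4 chr13:30748983-30749232: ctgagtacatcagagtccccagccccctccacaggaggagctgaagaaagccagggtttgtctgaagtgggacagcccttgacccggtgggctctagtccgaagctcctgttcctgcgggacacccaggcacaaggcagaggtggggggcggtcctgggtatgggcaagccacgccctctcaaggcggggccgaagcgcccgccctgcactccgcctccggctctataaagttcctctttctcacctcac

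GGAAGT, searched on both strands from 250 bases before to 50 after each listed start, was present at 4 of the 8 genes, Irf1, Irf2, Irf3 and Irf5, and in 23.8% of all 32815 promoter windows. At Irf2 it stood from base -247 to -242 before the start and ran straight into a pair of IRF half-sites, GAAA and GAAA spaced by 2 bases, from -241 to -232. The first bases of this stretch also read as a composite ETS-IRF element, GGAA and GAAA spaced by 2 bases, which overlaps both other matches. The IRF pair was in 3.43% and the composite element in 2.72% of all windows, each searched on both strands, and of the 8 members only Irf2 held either. TTCNNNGAA, the Stat-type letters, left in lower case above, were found at Irf1, Irf2 and Irf8 and in 8.29% of windows. TGACCA, the letters of the Bcl11a motif, were at 0 members and in 13.6% of windows. A match is a description of the letters and not a binding site.

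A Bcl11a peak in at least 2 of 6 WT-iMOS libraries was found at 3 members, Irf1, Irf5 and Irf8. A Spi1 peak in at least 2 libraries was found at 7 members in KO-iMOS and at 7 in WT-iMOS, with Irf9 the exception in both. Over all genes and 10 kb flanks these shares were 25.3% for Bcl11a, 49.8% for Spi1 in KO-iMOS and 33.5% for Spi1 in WT-iMOS. For 70 kb flanks, as used at Irf8, they were 53.5%, 73.6% and 63.9%. With 10 kb flanks Irf8 had Bcl11a in 0, KO-iMOS Spi1 in 3 and WT-iMOS Spi1 in 0 libraries. Its place in the Bcl11a and WT-iMOS Spi1 counts thus rests on the 70 kb flanks. The median locus of the members with 10 kb flanks measured 32050.5 bp, against 37169 bp for all genes.

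A single library held 1 to 4 members for Bcl11a, 5 to 8 for Spi1 in KO-iMOS and 3 to 7 for Spi1 in WT-iMOS. The number of regions with a peak went with list length. The longest list, KO-iMOS T1 replicate 1 with 20241 peaks, held a peak in 24 of the 26 regions, and the Bcl11a list T2 replicate 3 with 3287 peaks held 1. How much of each difference between groups follows list length was not tested beyond the shortened lists given beside the results.

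**Figure D1:**
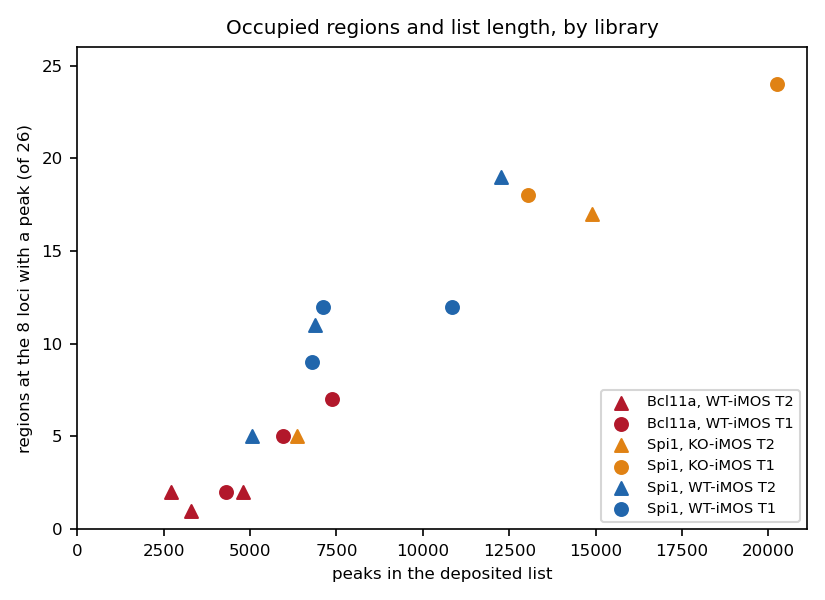
Number of regions at the 8 loci with a peak (vertical axis, of 26) against the number of peaks in the deposited list (horizontal axis), 1 point per library, with colour for target and genotype, triangles for T2 and circles for T1. The Bcl11a libraries held 1 to 7 regions, the KO-iMOS Spi1 libraries 5 to 24 and the WT-iMOS Spi1 libraries 5 to 19, with more regions in longer lists.

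Of the 26 regions 11 had their summit inside the gene, 10 upstream and 5 downstream. Only 5 reached a promoter window, those at Irf1, Irf2, Irf3, Irf4 and Irf9. The promoter windows of Irf5, Irf7 and Irf8 carried no peak in any of the 16 libraries. A Bcl11a peak was found in 10 of the 26 regions (38.5%), against 46.9% of all regions, and each of the 10 also carried Spi1 in at least 1 library. Only 4 of them had Bcl11a in at least 2 libraries. The rest met the minimum of 2 libraries only through Spi1, so this overlap gives no support. In at least 9 libraries a peak was found in 5 regions (19.2%), against 19.9% of all regions. Those 5 were Irf1 -6.2 kb, Irf5 +2.6 kb, Irf8 -50.1 kb, Irf2 +25.4 kb and Irf3 -202 bp, each named by the distance of its summit from the gene's first start.

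**Figure D2:**
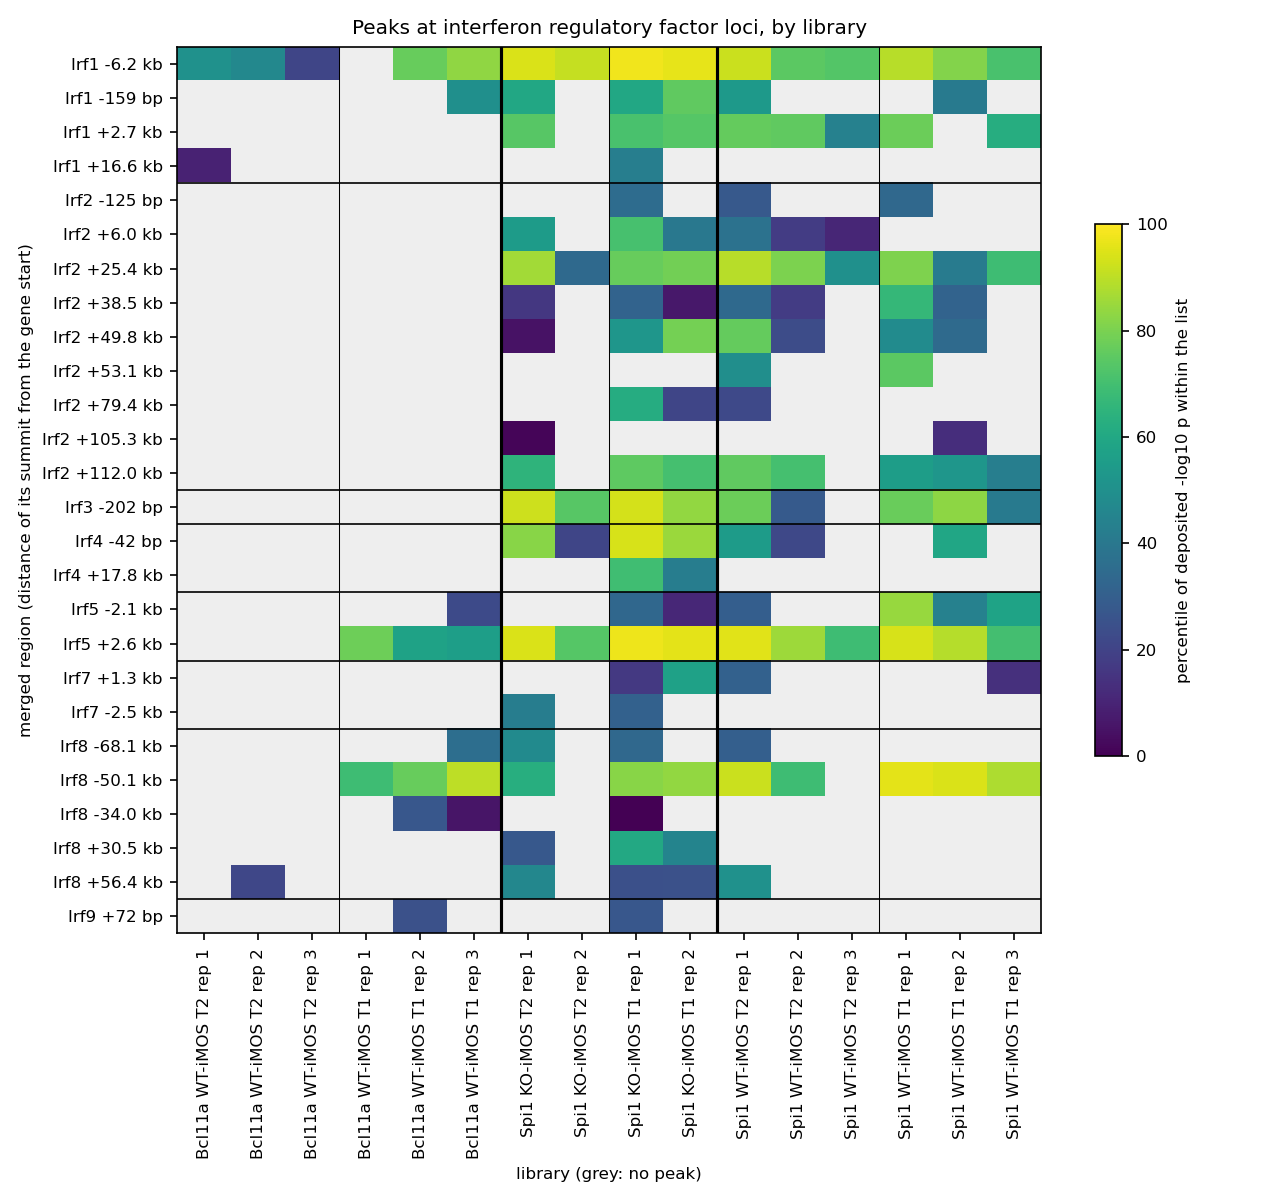
The 26 regions at interferon regulatory factor loci (rows) in the 16 libraries (columns, Bcl11a on the left, KO-iMOS Spi1 in the middle, WT-iMOS Spi1 on the right, T2 before T1), coloured by the percentile of the deposited -log10 p within the library's own list, grey where no peak was called. Irf1 -6.2 kb was filled in 15 of 16 libraries, all 9 Irf2 rows were empty for Bcl11a, and Bcl11a at Irf5 +2.6 kb and Irf8 -50.1 kb was found in T1 libraries only.

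Irf1, induced by interferon gamma and a transcriptional activator, had the most widely called region. It lay upstream of the gene at chr11:53763388-53764472, 38686 bp from the nearest other protein-coding gene, Il5. Bcl11a was called there in 3 of 3 T2 and 2 of 3 T1 libraries, and Spi1 in every KO-iMOS and every WT-iMOS library. The Bcl11a library without it was T1 replicate 1. The median summits of Bcl11a and Spi1 were 4 bp apart.

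Peak strength at Irf1 -6.2 kb, given as the percentile of the -log10 p among the peaks of the same list, was 50.7, 46.7 and 20.8 in Bcl11a T2 replicates 1, 2 and 3 and 76.7 and 83.3 in T1 replicates 2 and 3. For Spi1 in KO-iMOS it was 94.2 and 91.1 in T2 and 97.8 and 96.1 in T1. In WT-iMOS Spi1 libraries it had a lowest value of 71.4, a median of 78.0 and a highest of 91.9. All 4 KO-iMOS values were 91.1 or above, and only 1 WT-iMOS value reached their range. Percentiles from lists of different lengths cannot show whether binding changed, and the same comparison over all regions is not given.

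A second Irf1 region covered the start site, -159 bp, chr11:53769478-53770309. It held Bcl11a in 1 T1 library, Spi1 in 3 of 4 KO-iMOS libraries and Spi1 in 2 of 6 WT-iMOS libraries. The Irf1 promoter sequence given above lies within it. Inside the gene, Irf1 +2.7 kb at chr11:53772496-53773028 held Bcl11a in 0 libraries, and Spi1 in 3 KO-iMOS and 5 WT-iMOS libraries. Downstream, the +16.6 kb region was called for Bcl11a in 1 library and for KO-iMOS Spi1 in 1.

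Irf2, which occupies Irf1 target sites and often represses them, had 9 regions, 7 of them inside its 107714 bp gene, and Bcl11a was called in none. The region +25.4 kb, chr8:46764556-46765539, held Bcl11a in 0 of 6 libraries, against Spi1 in 2 of 2 T2 and 2 of 2 T1 KO-iMOS libraries and in 3 of 3 T2 and 3 of 3 T1 WT-iMOS libraries. Its Spi1 percentiles were 86.2 and 34.3 in KO-iMOS T2 and 76.8 and 78.8 in KO-iMOS T1. In WT-iMOS they had a lowest value of 41.5, a median of 74.8 and a highest of 89.2. Presence there did not overlap between Bcl11a and WT-iMOS Spi1.

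This was the only member region called between the targets, and it met the minimum of 2 libraries through Spi1 alone. Bcl11a minus Spi1 was -1 as a share of libraries (two-sided Fisher's exact test p = 0.00216, the smallest the design allows, Benjamini-Hochberg adjusted p = 0.0461 over 13637 regions). Genome-wide 4.69% of regions were called in either direction and 4.53% as lower for Bcl11a, so 1 of the 19 member regions tested is near that background. With every list shortened to the same length the difference was -0.833 and the adjusted p of Fisher's exact test 0.0876. Without Bcl11a T1 replicates 2 and 3 together the adjusted p was 0.0525.

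Spi1 at the other Irf2 regions was less regular. Irf2 +112.0 kb, beyond the gene's end at chr8:46851458-46852019, held Spi1 in 3 KO-iMOS libraries of 4 and in 5 WT-iMOS libraries of 6. Both +38.5 kb and +49.8 kb held it in 3 KO-iMOS libraries and 4 WT-iMOS libraries. At +6.0 kb, chr8:46745611-46746224, it was called in KO-iMOS in 1 of 2 T2 and 2 of 2 T1 libraries. In WT-iMOS it was called in 3 of 3 T2 but 0 of 3 T1 libraries. These peaks ranked low within the WT-iMOS T2 lists, at the 37.7, 17.6 and 10.8 percentiles, and with every list cut to equal length 0 libraries kept a peak there. The same split of all T2 and no T1 libraries was found for 1.0% of the regions with Spi1 in at least 2 of the 6 WT-iMOS libraries. The start-site region at -125 bp, chr8:46739378-46740180, was called for Spi1 in 1 KO-iMOS library and 2 WT-iMOS libraries. Its percentiles were 35.3 in KO-iMOS and 27.8 and 33.9 in WT-iMOS, and 0 libraries kept it at equal length. The merged region holds the ETS and IRF letters capitalised above. The WT-iMOS T2 peak, which begins at -0.206 kb, does not reach the adjoining ETS and IRF matches. The 3 remaining regions, at +53.1, +79.4 and +105.3 kb, were called in 2 or 3 libraries each.

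**Figure D3:**
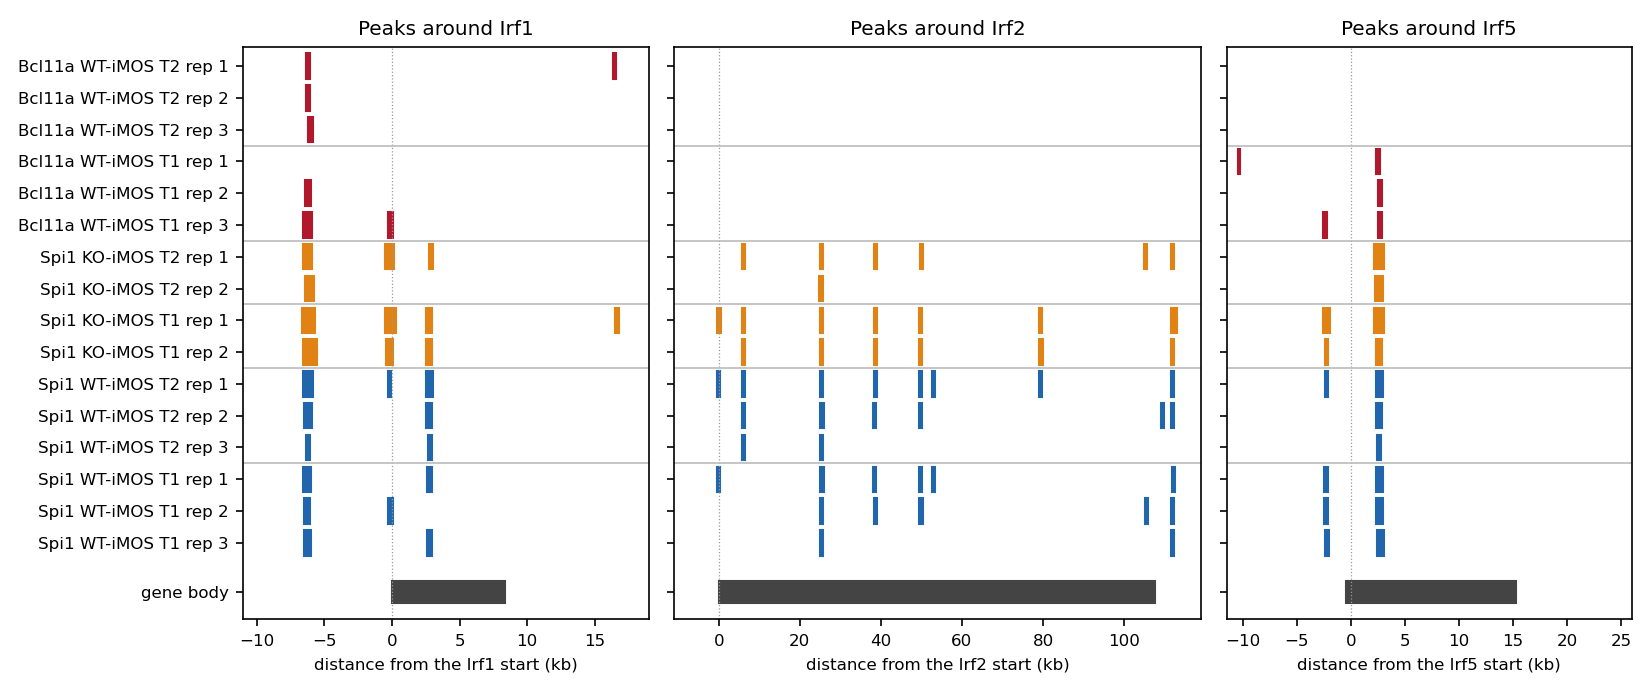
Peaks in each library (rows, Bcl11a on top, KO-iMOS Spi1 below it, WT-iMOS Spi1 at the bottom) against distance from the gene's first start in kb (horizontal axis, gene body in dark grey) for Irf1, Irf2 and Irf5; peaks narrower than a visible bar are widened about their centre. Bcl11a shared the upstream Irf1 region and the Irf5 region inside the gene with Spi1 and had no peak at Irf2.

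Irf3, the latent factor phosphorylated by Tbk1 below nucleic acid sensors, had a single region, -202 bp, chr7:44997240-44997906, and no other peak in any library. Bcl11a was called there in 0 of 6 libraries, and Spi1 in all 4 KO-iMOS libraries and in 5 of the 6 WT-iMOS libraries. The Spi1 percentiles were 92.3 and 74.1 in KO-iMOS T2 and 93.6 and 83.7 in KO-iMOS T1. In the 5 WT-iMOS libraries they ran over 28.4 to 82.9, and T2 replicate 3, the shortest WT-iMOS list, had no peak. The summit lies inside Bcl2l12, which starts back to back with Irf3 on the other strand, and the region covers both starts. Bcl11a minus Spi1 was -0.833 and did not pass (two-sided Fisher's exact test p = 0.0152, Benjamini-Hochberg adjusted p = 0.142).

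Irf4, a partner of PU.1 best known from lymphocytes and dendritic cells, had its main region at the start site, -42 bp, chr13:30748914-30749547. Bcl11a was called there in 0 of 6 libraries, and Spi1 in 4 of 4 KO-iMOS libraries, against 2 of 3 T2 and 1 of 3 T1 WT-iMOS libraries. The Spi1 percentiles were 82.3 and 20.9 in KO-iMOS T2 and 93.8 and 84.9 in KO-iMOS T1, against 54.9 and 21.7 in WT-iMOS T2 and 59.0 in WT-iMOS T1. With lists of equal length 3 KO-iMOS libraries and 0 WT-iMOS libraries kept the peak. KO-iMOS minus WT-iMOS was 0.5 as a share of libraries and did not pass (two-sided Fisher's exact test p = 0.2, adjusted p = 0.377). No GGAAGT is in the Irf4 window. At the gene's other end, Irf4 +17.8 kb at chr13:30766647-30767282 held Spi1 in both KO-iMOS T1 libraries and in no other library.

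The start sites of Irf3 and Irf4 thus carried Spi1 in at least 7 of the 10 Spi1 libraries without Bcl11a in any. The same held for 408 of all 32815 promoter windows (1.24%), and Spi1 in at least 7 libraries, with or without Bcl11a, for 4.67%.

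Irf5, a factor of macrophage inflammatory responses, carried both targets inside the gene at +2.6 kb, chr6:29528767-29529680. Bcl11a was called in 0 of 3 T2 and 3 of 3 T1 libraries. Spi1 was called in all 4 KO-iMOS and all 6 WT-iMOS libraries, with a median summit 1 bp from that of Bcl11a. The Bcl11a percentiles were 78.0, 57.7 and 56.1 in T1 replicates 1, 2 and 3. For Spi1 they were 94.4 and 73.6 in KO-iMOS T2, 97.5 and 95.8 in KO-iMOS T1, and 68.8 to 95.6 in WT-iMOS. Upstream, Irf5 -2.1 kb at chr6:29524074-29524660 held Bcl11a in 1 T1 library, Spi1 in 0 of 2 T2 and 2 of 2 T1 KO-iMOS libraries, and Spi1 in 1 of 3 T2 and 3 of 3 T1 WT-iMOS libraries.

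Irf8, the monocyte and dendritic cell determinant, had 5 regions in at least 2 libraries and none within 10 kb upstream of its start or inside the gene. The nearest widely called region was -50.1 kb, chr8:120685486-120686681, 12039 bp from the next gene, Cox4i1. Bcl11a was called there in 0 of 3 T2 and 3 of 3 T1 libraries. Spi1 was called in 1 of 2 T2 and 2 of 2 T1 KO-iMOS libraries and in 2 of 3 T2 and 3 of 3 T1 WT-iMOS libraries. Elements at about this distance upstream are known in mouse as PU.1-bound Irf8 enhancers, and the median summits of Bcl11a and Spi1 lay 2 bp apart.

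The Bcl11a percentiles at Irf8 -50.1 kb were 68.8, 76.9 and 90.2 in T1 replicates 1, 2 and 3. For Spi1 they were 62.8 in the KO-iMOS T2 library with a peak and 82.1 and 83.9 in the T1 libraries. In WT-iMOS they were 92.1 and 69.0 in T2 replicates 1 and 2 and 95.8, 94.3 and 87.6 in T1. The 2 Spi1 libraries without this peak, KO-iMOS T2 replicate 2 and WT-iMOS T2 replicate 3, had the shortest lists of their genotype, with 6372 and 5068 peaks.

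The remaining Irf8 regions were called in 3 to 5 libraries. Irf8 -34.0 kb at chr8:120701957-120702662 held Bcl11a in 2 of 3 T1 libraries and Spi1 in 1 KO-iMOS library. Irf8 +30.5 kb at chr8:120766580-120767146 held Bcl11a in 0 libraries and Spi1 in 3 of 4 KO-iMOS, against 0 of 6 WT-iMOS libraries. Irf8 +56.4 kb at chr8:120792531-120793424, at about the distance of a known downstream enhancer of monocytes, held Bcl11a in 1 T2 library, Spi1 in 3 of 4 KO-iMOS libraries and Spi1 in 1 of 6 WT-iMOS libraries. The Bcl11a summit there was 605 bp from the Spi1 summits. Irf8 -68.1 kb had its summit inside Cox4i1 and was called in 4 libraries.

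**Figure D4:**
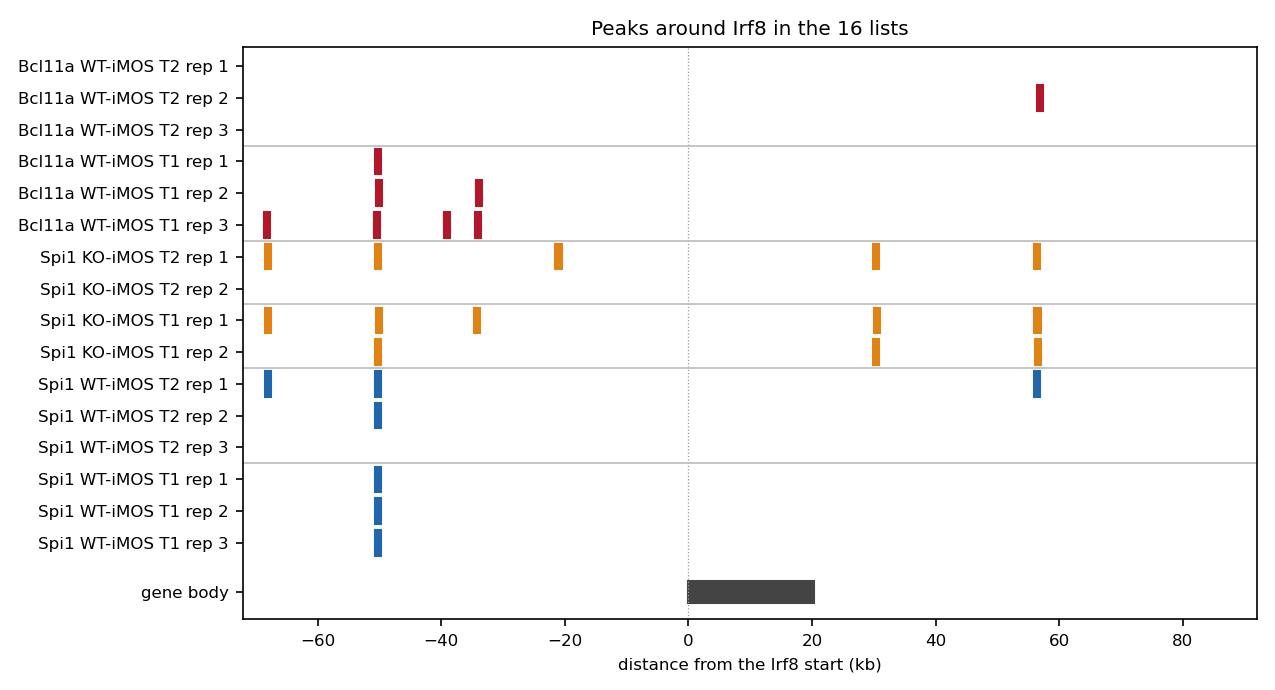
Peaks in each library (rows, Bcl11a on top, KO-iMOS Spi1 below it, WT-iMOS Spi1 at the bottom) against distance from the Irf8 start in kb (horizontal axis, gene body in dark grey); peaks narrower than a visible bar are widened about their centre. The -50.1 kb region held Bcl11a in 3 T1 libraries and no T2 library, and the +30.5 kb region held Spi1 in 3 KO-iMOS libraries and no WT-iMOS library.

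Irf7, the inducible driver of type I interferon genes, and Irf9 had few peaks. Irf7 +1.3 kb at chr7:141264794-141265366 held Spi1 in 2 KO-iMOS and 2 WT-iMOS libraries. Irf7 -2.5 kb at chr7:141268634-141269208, 205 bp from Cdhr5, held Spi1 in 2 KO-iMOS and 0 WT-iMOS libraries. Irf9 had 1 region, +72 bp at chr14:55603832-55604324, with Bcl11a in 1 T1 library and Spi1 in 1 KO-iMOS T1 library, and Rnf31 lies 383 bp from its summit.

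Between the targets in WT-iMOS, Bcl11a was present in a smaller share of libraries than Spi1 at 16 of 19 tested member regions, equal at 2 and larger at 1, Irf8 -34.0 kb. The share was lower by at least 0.5 at 10 of the 19, against 29.7% of all regions tested. Of those 10, 8 had no Bcl11a peak and Irf5 -2.1 kb had Bcl11a in 1 library. These met the minimum of 2 libraries only through Spi1, so this count gives no support. Per gene, Irf2 stood at 0 of 6 for Bcl11a against 6 of 6 for Spi1 (two-sided Fisher's exact test p = 0.00216, adjusted p = 0.0681) and Irf3 at 0 of 6 against 5 of 6 (exact p = 0.0152, adjusted p = 0.163). Over 9221 genes, 285 (3.09%) had no Bcl11a and every Spi1 library, as Irf2 did. The Benjamini-Hochberg adjustment called 0 genes (0.0%), 798 being lower for Bcl11a and 59 higher at an unadjusted p under 0.05. With every list cut to equal length the same Fisher's exact test called 395 of 4753 genes, and 617 were lower and 198 higher for Bcl11a at an unadjusted p under 0.05; Irf2 differed by -0.833 there (adjusted p 0.0884). With only peaks of -log10 q of at least 5, Irf2 passed (adjusted p = 0.0449 by Fisher's exact test), and it also passed without Bcl11a T1 replicate 3 (0.0396) or Spi1 WT-iMOS T2 replicate 3 (0.0469). Without that Spi1 library Irf3 passed as well (0.0469). Both genes met the minimum of 2 libraries through Spi1 alone, so their p-values give no support.

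Between KO-iMOS and WT-iMOS, Spi1 was present in a larger share of KO-iMOS libraries at 14 of 23 tested member regions, smaller at 6 and equal at 3, with a median difference of 0.083. The difference was at least 0.5 at 5 of the 23 (21.7%), against 42.7% of all 19539 regions tested, and -0.5 or lower at 0, against 10.3%. The 5 were Irf4 -42 bp, Irf4 +17.8 kb, Irf7 -2.5 kb, Irf8 +30.5 kb and Irf8 +56.4 kb. Of these, Irf4 +17.8 kb, Irf7 -2.5 kb and Irf8 +30.5 kb met the minimum of 2 libraries through KO-iMOS alone. So did Irf8 +56.4 kb, where Spi1 was called in 1 WT-iMOS library. With lists of equal length only Irf4 -42 bp of these 5 kept a Spi1 peak. Irf3 -202 bp was then also higher in KO-iMOS, with 4 of 4 against 2 of 6 WT-iMOS libraries. Irf8 -50.1 kb and Irf2 +25.4 kb were lower, each with 1 of 4 KO-iMOS against 5 of 6 WT-iMOS libraries. Irf1 +2.7 kb was lower as well, with 0 of 4 against 3 of 6. Irf2 +112.0 kb and Irf5 -2.1 kb each kept Spi1 in 1 WT-iMOS library only.

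No member region passed the test with the lists as deposited. Irf8 +30.5 kb had the smallest p of the member regions, 0.0333, with a difference of 0.75 (two-sided Fisher's exact test, Benjamini-Hochberg adjusted p = 0.232). At Irf8 +56.4 kb the difference was 0.583 (exact p = 0.190, adjusted p = 0.377). The exact test, adjusted in this way, called 0 of 19539 regions (0.0%; smallest adjusted p 0.107), while 3005 were higher and 761 lower in KO-iMOS at an unadjusted p under 0.05. With every list cut to equal length, 387 were higher and 344 lower of 4436 regions at the same unadjusted p, and again 0 were called. Per gene, Irf4 alone of the 7 tested members differed by at least 0.5, against 40.8% of all genes higher by as much in KO-iMOS, and 0 of 12055 genes were called (0.0%; 1828 higher and 194 lower at an unadjusted p under 0.05). The KO-iMOS lists were longer. With every list cut to equal length, 331 genes were higher and 217 lower of 3731 at that unadjusted p, with 0 called.

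Between T2 and T1, Bcl11a was tested at 4 member regions, and 2 did not overlap, Irf5 +2.6 kb and Irf8 -50.1 kb, each with 0 of 3 T2 and 3 of 3 T1 libraries. Both met the minimum of 2 libraries through T1 alone, so this count gives no support. Presence in every T1 and no T2 library was found for 6.92% of all 6386 regions tested. It held for 20.7% of the 2137 regions with Bcl11a in all 3 T1 libraries, and for 13.5% of the 1267 of these that also carried Spi1 in all 3 WT-iMOS T1 libraries. At 3 libraries against 3 Fisher's exact test cannot go below p = 0.1, and none of 6386 regions was called (0.0%; 0 at an unadjusted p under 0.05, smallest adjusted p 0.902). The Bcl11a T2 lists held 2719 to 4786 peaks and the T1 lists 4300 to 7382. The reverse, Bcl11a in all T2 and no T1 libraries, held for 70 of 1225 regions complete in T2. With every list cut to equal length the counts were 113 of 1009 regions complete in T2 and absent from T1, and 145 of 1088 complete in T1 and absent from T2. With lists of that length, Bcl11a was in 0 T2 and 3 T1 libraries at Irf8 -50.1 kb and in 0 T2 and 2 T1 libraries at Irf5 +2.6 kb. Irf1 -6.2 kb went the other way, with 3 T2 and 2 T1 libraries in both settings.

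For Spi1 between T2 and T1, of 23 tested regions 3 were present in a larger share of T2 libraries, 12 in a smaller share and 8 in an equal share. Only Irf5 -2.1 kb differed by 0.5 or more, with 1 of 5 T2 against 5 of 5 T1 Spi1 libraries (difference -0.8, exact permutation within genotype, two-sided p = 0.0667, adjusted p = 1). That region met the minimum of 2 libraries through T1 alone, so its difference gives no support. With these libraries the permutation cannot go below p = 0.0167. A share lower by at least 0.5 in T2 was found for 4.06% of all regions, and 0 were called by this exact permutation test (0.0%; 1 higher and 13 lower at an unadjusted p under 0.05). With every list cut to equal length, Irf5 -2.1 kb differed by -0.2. Of all 4436 regions tested there, 6 were higher and 6 lower at an unadjusted p under 0.05 by the same permutation test.

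Genes that act with the interferon regulatory factors were read from lists chosen with earlier results of these data known. Over all genes, 25.3% had a peak within 10 kb in at least 2 libraries for Bcl11a, 49.8% for Spi1 in KO-iMOS and 33.5% for Spi1 in WT-iMOS. Of 14 interferon signalling genes, 9 had Bcl11a, 11 had KO-iMOS Spi1 and 9 had WT-iMOS Spi1 in at least 2 libraries. The interferon receptor genes were nearly always occupied: Ifnar1 stood at 5 of 6 for Bcl11a, 4 of 4 for KO-iMOS Spi1 and 6 of 6 for WT-iMOS Spi1, and Ifngr1 at 6 of 6, 4 of 4 and 6 of 6. Stat2, a partner of Irf9, had Bcl11a in 0 of 6, KO-iMOS Spi1 in 1 of 4 and WT-iMOS Spi1 in 0 of 6 libraries.

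Of 15 sensors and adaptors upstream of Irf3, Irf5 and Irf7, 6 had Bcl11a, 9 KO-iMOS Spi1 and 7 WT-iMOS Spi1. Tlr9, the endosomal DNA sensor, was at 2 of 6, 4 of 4 and 6 of 6, and Tlr7 had no peak. Of 20 interferon-stimulated genes found in the annotation, 5 had Bcl11a, 9 KO-iMOS Spi1 and 7 WT-iMOS Spi1. Isg15, Ifit1, Ifit3 and Cxcl10 had none in any library, whereas Psmb8, an immunoproteasome subunit, had Bcl11a in 6 of 6, KO-iMOS Spi1 in 3 of 4 and WT-iMOS Spi1 in 6 of 6.

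Of 12 monocyte and dendritic cell genes linked to Irf8, 8 had Bcl11a, 10 KO-iMOS Spi1 and 10 WT-iMOS Spi1 in at least 2 libraries. Csf1r, the macrophage growth factor receptor, was at 6 of 6, 4 of 4 and 6 of 6, and Cybb at 0 of 6, 2 of 4 and 5 of 6. Of 18 partner and lineage factors the counts were 9, 13 and 12, with Spi1's own locus occupied in every library and Myb, a progenitor factor, at 0 of 6, 4 of 4 and 1 of 6. In the KO-iMOS comparison a share higher by at least 0.5 was found for 3 of 12 tested signalling, 3 of 11 sensor, 4 of 10 stimulated, 5 of 15 partner and 1 of 11 Irf8-linked genes, against 40.8% of all genes tested. The exact test adjusted over all genes called 0 of them, in this comparison and between the targets.

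Presence of a peak by library at Irf8 was most alike, among the listed genes, to that at Psmb9, Socs3 and Xcr1, each agreeing with Irf8 in 14 of 16 libraries. Of all genes, 1.06% agreed as often. Irf8 was taken here with 70 kb flanks and the other genes with 10 kb. With 10 kb flanks Irf8 had Bcl11a in 0, KO-iMOS Spi1 in 3 and WT-iMOS Spi1 in 0 libraries. All genes share the list lengths of these libraries, whose part in the likeness was not tested.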

How the data were processed

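Each of the 16 libraries had 1 deposited narrowPeak list, so peaks had been called library by library. The submitters' processing notes name Bowtie2, SAMtools, MACS2 and mm10 with no version or setting. Whether a control was used is not given in the sources here. The authors deposited for each peak coordinates, the summit, a whole-number score, a ratio (fold enrichment over local background) and the −log10 of its p-value and q-value. These are the authors' values and served here for ranking and filtering within each list only. Sequencing depth is unknown from these lists; the number of libraries in a group limits the precision of each share, and list length limits which loci can be called.

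The 130097 of 131939 peaks on assembled chromosomes were merged at an overlap of 1 bp or more. Genes, starts and strands came from RefSeq on GRCm38.p6, the assembly of mm10; exons and introns were not told apart. Presence of a peak was compared by two-sided Fisher's exact test, or exact permutation within genotype for Spi1 T2 against T1, with Benjamini-Hochberg adjustment over all regions or genes with a peak in at least 2 compared libraries and a threshold of 0.05. Groups follow target, genotype and T in the labels; no library was left out. All 8 members and every region in at least 2 libraries are given. The members, lists, motifs and tests were chosen with earlier results of these data known. Alternatives were stricter peaks (−log10 q of at least 5), lists of equal length, 200 bp summit windows, other flanks, a replicate block and leaving libraries out. The tests were checked on simulated data. Tools were Python 3.11.15, scipy 1.17.1, numpy 2.4.6, matplotlib 3.10.9 and pandas 2.3.3.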

Additional observations from a re-analysis of the deposited data

Results flagged for a closer look

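In 33 groups of peak counts per library that were checked for a value standing apart, 5 were found. How many chance alone gives was not tested. Counts per gene are small whole numbers, so a lone 1 among zeros is enough. Irf9 had 1 peak in Bcl11a T1 replicate 2 and 0 in the other 5 Bcl11a libraries. Irf9 had 1 peak in Spi1 KO-iMOS T1 replicate 1, the longest list, and 0 in the other 3 KO-iMOS libraries. Irf1 had 3 peaks and Irf8 had 3 peaks in Spi1 WT-iMOS T2 replicate 1, the longest WT-iMOS list with 12261 peaks, against 2 at Irf1 and 0 or 1 at Irf8 in the other 5. Irf3 had 0 peaks in Spi1 WT-iMOS T2 replicate 3, the shortest WT-iMOS list with 5068 peaks, and 1 in each of the other 5. The part of list length in these counts was not tested.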

How the results depend on the processing

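Shortening every list to equal length left 7 of the 26 member regions and 4 of the 7 members with KO-iMOS Spi1. It called 395 genes between Bcl11a and Spi1, against 0 with the lists as deposited; peaks of −log10 q of at least 5 called 363, and leaving out Bcl11a T1 replicates 2 and 3 together called 828 genes but 0 regions, against 640 regions with all libraries. Leaving out 1 library at a time gave 648 to 881 called regions, 0 to 469 called genes (469 without Bcl11a T1 replicate 3, 423 without Spi1 WT-iMOS T2 replicate 3) and 22 to 26 member regions. The tests at T2 against T1 and at KO-iMOS against WT-iMOS called 0 under every setting run. For Bcl11a this was fixed beforehand, since Fisher's exact test on at most 3 libraries per group cannot go below p = 0.1. With all libraries the floors were p = 0.0167 for the Spi1 permutation test and 0.00476 for Fisher's exact test between KO-iMOS and WT-iMOS. These 0 counts therefore show no stability.

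At Irf2 +25.4 kb the difference stayed at -1 when 1 library was left out, with adjusted p by Fisher's exact test of 0.0330 to 0.0451. Irf3 -202 bp and Irf2 +112.0 kb passed without Spi1 WT-iMOS T2 replicate 3 (0.0330), Irf1 +2.7 kb without Spi1 WT-iMOS T1 replicate 2 (0.0414), and the Irf2 gene without Bcl11a T1 replicates 2 and 3 together (0.0464). All of these regions and the Irf2 gene met the minimum of 2 libraries through Spi1 alone. Of 59 differences under 0.5 recomputed 949 times, 28 changed sign and 0 passed. Libraries of equal replicate number had correlated deviations of -0.0974 to 0.0213 between the targets and -0.0226 to 0.0340 between KO-iMOS and WT-iMOS. Between T2 and T1 these were all positive, 0.0125 to 0.127 for Bcl11a and 0.0104 to 0.166 for Spi1, against -0.163 to 0.0244 for Spi1 libraries of different number. In no comparison did every pair exceed 0.1, so the numbers were not taken as pairs. With a replicate block, a sign test on pairs of equal replicate number and T, 0 regions were called. The adjusted p of Irf2 +25.4 kb was 0.585 by this sign test. With Spi1 and no Bcl11a in every pair, that region already had the smallest unadjusted p the sign test allows. Its adjusted p is therefore not comparable with that of Fisher's exact test. The cause of the shifts in the other settings was not tested.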

Other observations

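The remaining 5 regions at the loci had a peak in 1 library each. These were Irf2 +109.4 kb in a WT-iMOS Spi1 library, Irf2 +112.7 kb and Irf8 -21.1 kb in KO-iMOS Spi1 libraries, and Irf5 -10.4 kb and Irf8 -38.9 kb in Bcl11a libraries. Irf2bp2, a corepressor that binds Irf2, had Bcl11a in 4 of 6, KO-iMOS Spi1 in 4 of 4 and WT-iMOS Spi1 in 5 of 6, whereas Irf2 itself had no Bcl11a peak.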
